A study of Rattus norvegicus with 18 samples.

Results

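The proteasome subunit genes described here are the 38 rat genes with the symbols Psma1 to Psma7, Psmb1 to Psmb7, Psmc1 to Psmc6, Psmd1 to Psmd14 and Psme1 to Psme4, a set defined by symbol, with no measured value in its rule. All 38 were among the 38445 genes with deposited counts, and all 38 were among the 17853 genes tested. RNA from the dorsal hippocampus of 18 adult male, wild-type Sprague Dawley rats was sequenced. All rats were fed Lieber-DeCarli liquid diet and were 75 to 85 days old when purchased. The 6 control rats received diet without ethanol, the 6 ethanol rats received 9% (v/v) ethanol for 16 days without withdrawal, and the 6 withdrawal rats received 9% (v/v) ethanol for 15 days followed by control diet for 24 h. Per the paper, a stepwise introduction at lower ethanol concentrations came before these days in both ethanol groups, and rats were pair fed. The samples were dissected pieces of tissue, in which fewer cells of a type and less RNA per cell cannot be told apart.

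The proteasome is the protease that degrades most proteins tagged with ubiquitin. Its barrel-shaped core is built of outer alpha rings and inner beta rings, and the catalytic sites lie inside the beta rings. A regulatory particle with a ring of ATPases in its base and a lid above it recognizes, deubiquitinates, unfolds and feeds substrates into the core, and separate activators can take its place. In neurons the proteasome contributes to protein turnover at synapses. When proteasome activity falls short, the transcription factor NFE2L1 is known to activate the subunit genes together.

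The libraries held 30873228 to 42679748 counts on genes, and 0.321% to 0.375% of the counts of a rat came from the 38 subunit genes. The library indices fell into 3 sets. All control libraries had the first set, all ethanol libraries and those of withdrawal rats 1 and 2 had the second, and withdrawal rats 3 to 6 had the third, so that index set and control group cannot be told apart. The 46 marker genes tested, for neurons, glia, endothelium, choroid plexus, thalamus and red cells, were above 0 in every rat. The hippocampal neuron markers summed to 2530 to 2960 CPM (counts scaled to library size, with TMM factors) in control, 2153 to 3219 CPM in ethanol and 2493 to 3097 CPM in withdrawal rats, and most of each sum came from Snap25, a gene of all neurons (control mean 1876 CPM). Withdrawal rat 5 was the lowest of all rats for Neurod2 (34.6 CPM), Neurod6 (73.1 CPM), Prox1 (52.9 CPM) and Wfs1 (75.5 CPM), which mark hippocampal principal cells and were at least 65.3, 188.5, 116.9 and 235.9 CPM in control rats. The summed choroid plexus markers, which include Ttr, ranged from 1085 to 2264 CPM in control, from 1441 to 5332 CPM in ethanol and from 29.1 to 5342 CPM in withdrawal rats, the lowest values being those of withdrawal rats 4 and 5.

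The mean level of the subunit genes was slightly higher in withdrawal rats than in both other groups, while few single genes passed the test. The mean log2 CPM over the 38 genes, called the proteasome score, was 6.21 ± 0.034 in control, 6.21 ± 0.053 in ethanol and 6.31 ± 0.056 in withdrawal rats (SD, n = 6 each). Withdrawal thus exceeded control by 0.09 on the log2 scale, or 6.70%, and ethanol by 0.09, or 6.65%, while ethanol and control differed by 0.00077. The score received no test, because the genes were chosen with results of these data known. In control rats 1 to 6 the score was 6.16, 6.21, 6.19, 6.26, 6.22 and 6.24. In ethanol rats 1 to 6 it was 6.23, 6.19, 6.17, 6.17, 6.31 and 6.20, and in withdrawal rats 1 to 6 it was 6.40, 6.23, 6.28, 6.30, 6.32 and 6.30. Of the withdrawal rats, 5 of 6 lay above every control rat, and withdrawal rat 2 lay within the control range. Only 2 of 6 withdrawal rats lay above every ethanol rat, because ethanol rat 5 reached 6.31, and 5 of 6 lay above the other ethanol rats. Without withdrawal rat 5, which had the second highest score and the lowest levels of those neuron markers, the difference was 0.09 against both groups, and the part of its markers was not tested. Within the withdrawal group the score was 6.31 ± 0.121 (SD, n = 2) in the second index set, which held both the highest and the lowest of the withdrawal rats, and 6.30 ± 0.017 (SD, n = 4) in the third, so these values do not resolve a difference between index sets.

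**Figure D1:**
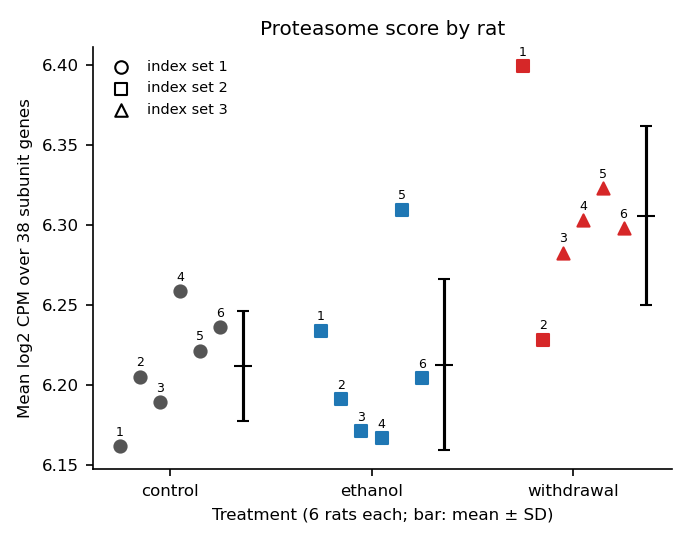
Mean log2 CPM over the 38 subunit genes (vertical axis) in each of the 18 rats, by treatment, with the number of the rat above each point, the index set as the shape of the point and a bar for the mean and SD of the 6 rats. Withdrawal rat 1 (6.40) is the highest of all rats, ethanol rat 5 (6.31) is the highest ethanol rat and withdrawal rat 2 (6.23) lies among the control rats.

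Many subunit genes were high or low in the same rat. The same counts over all genes were not made, so nothing particular to these genes follows. In withdrawal rat 1, 37 of the 38 genes were above their own median over all rats, and 20 of the 38 reached their highest level there. Ethanol rat 5 had 34 genes above their median, whereas withdrawal rat 2 had 14, control rat 1 had 5 and ethanol rat 4 had 3. Ethanol rat 5 was nevertheless the lowest of all rats for Psme1, Psme2 and Psmd10. It also had the highest summed neuron markers of all rats (3219 CPM) and the lowest summed oligodendrocyte (12481 CPM) and thalamus markers (180 CPM), and the neuron sum of ethanol rat 4 was 2256 CPM. Withdrawal rat 1 also had the fewest total counts. Its summed astrocyte markers (3568 CPM) and hippocampal neuron markers (2502 CPM) lay within the range of the other withdrawal rats. Its summed oligodendrocyte markers (12730 CPM) were below those of the other withdrawal rats (13532 to 15154 CPM), and its summed endothelial markers (314 CPM) were the highest of all rats. The part of these differences in the result was not tested. The median SD of log2 CPM within a group was 0.058 in control, 0.081 in ethanol and 0.087 in withdrawal rats for the subunit genes, beside 0.087, 0.118 and 0.125 for the 10516 genes with a mean of at least 10 CPM.

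**Figure D2:**
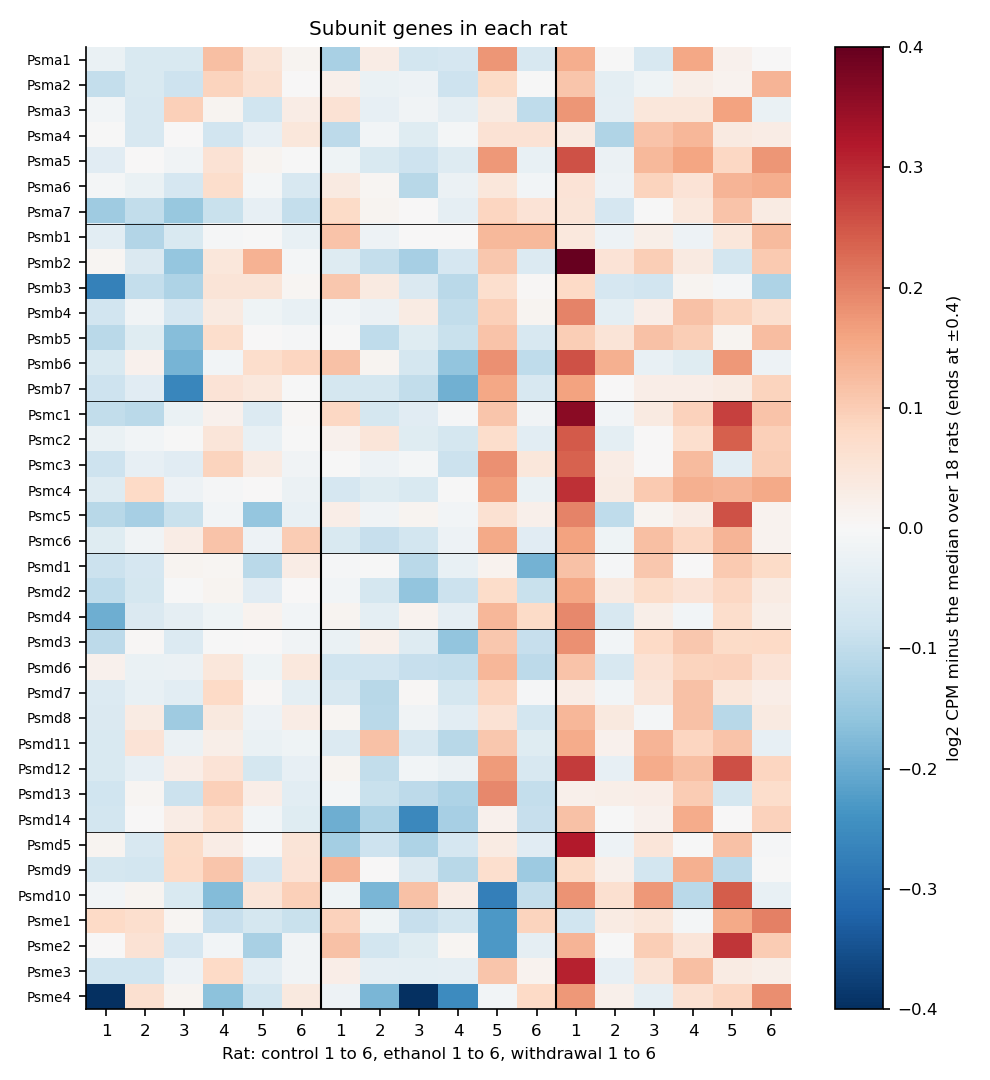
Level of each of the 38 subunit genes (rows) in each rat (columns, rats 1 to 6 of control, ethanol and withdrawal from left to right) as log2 CPM minus the median of that gene over the 18 rats, with the colour scale ending at ±0.4. Columns rather than single cells stand out: withdrawal rat 1 is above the median in 37 genes, ethanol rat 5 in 34 and ethanol rat 4 in 3.

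Levels of the genes were compared with each other as CPM per kilobase of annotated exon in control rats. The ATPase gene Psmc5 had the highest level (114 ± 4.52 CPM per kb, SD, n = 6), followed by the beta ring gene Psmb1 (109 ± 3.22 CPM per kb) and then Psmb4, neighbours that differed by about the spread between rats. The medians of the subcomplexes were 77.2 CPM per kb for the alpha ring, 76.0 for the beta ring, 73.7 for the ATPases, 56.8 for the base scaffold and receptor, 54.0 for the lid and 27.4 for the activators. The assembly chaperones Psmd5, Psmd9 and Psmd10, which help to build the regulatory particle and leave the finished complex, were lowest, with Psmd10 at 10.6 ± 0.677 CPM per kb. The annotated length enters these values. Psma3 has 3166 bases of annotated exon, the most in the alpha ring, and the lowest level per kb of that ring (35.9).

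**Figure D3:**
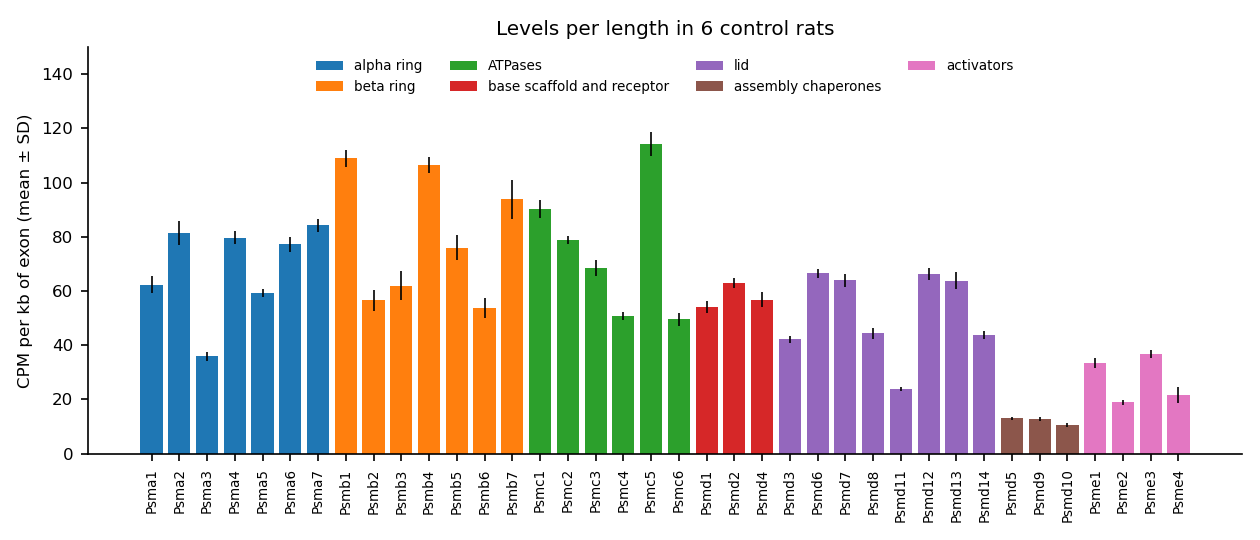
CPM per kilobase of exon (mean and SD of the 6 control rats) for the 38 subunit genes, coloured by subcomplex. Core and ATPase genes lie between 35.9 (Psma3) and 114 (Psmc5), and the 3 assembly chaperones lie between 10.6 and 13.0.

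The comparison of withdrawal with control asked which genes differ 24 h after the last ethanol. Psma7, an alpha ring subunit, Psmb5, the catalytic subunit with chymotrypsin-like activity, and Psmc1, an ATPase of the base, were DE and higher in withdrawal (q < 0.1, limma-voom with 3 surrogate variables). These were 3 of 38 genes (7.89%), where 2.85% of all genes tested and 3.68% of those of at least 10 CPM were called higher. No subunit gene was called lower, where 456 of the 17853 genes tested were, and 0 of 38 is close to that share. The log2 fold change was above 0 for 37 of 38 genes, where 50.1% of all genes tested and 54.3% of those of at least 10 CPM were. Its median was 0.09 (6.39%), beside 0.0003 for all genes and 0.01 for genes of at least 10 CPM. At an unadjusted p below 0.05, 14 of 38 genes (36.8%) were higher in withdrawal, where 10% of all genes tested and 12.4% of those of at least 10 CPM were. This count was 8 without withdrawal rat 6 and 21 without withdrawal rat 2. Without surrogate variables 0 subunit genes were called in limma-voom or edgeR, although the log2 fold changes of Psma7 (0.13), Psmb5 (0.13) and Psmc1 (0.19) were about as large, and 0 were called at q < 0.05. Leaving out 1 rat gave 0 genes for each of control rats 1, 3 and 6, ethanol rats 1, 2 and 3 and withdrawal rats 1, 3, 5 and 6, 1 gene for control rats 2, 4 and 5 and ethanol rats 4 and 6, 2 genes for withdrawal rat 4, 6 genes for ethanol rat 5 and 11 genes for withdrawal rat 2. The shares of all genes called or at an unadjusted p below 0.05 in these other fits are not given here. These counts therefore show how calls depend on the fit, and not a trait of the subunit genes.

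**Figure D4:**
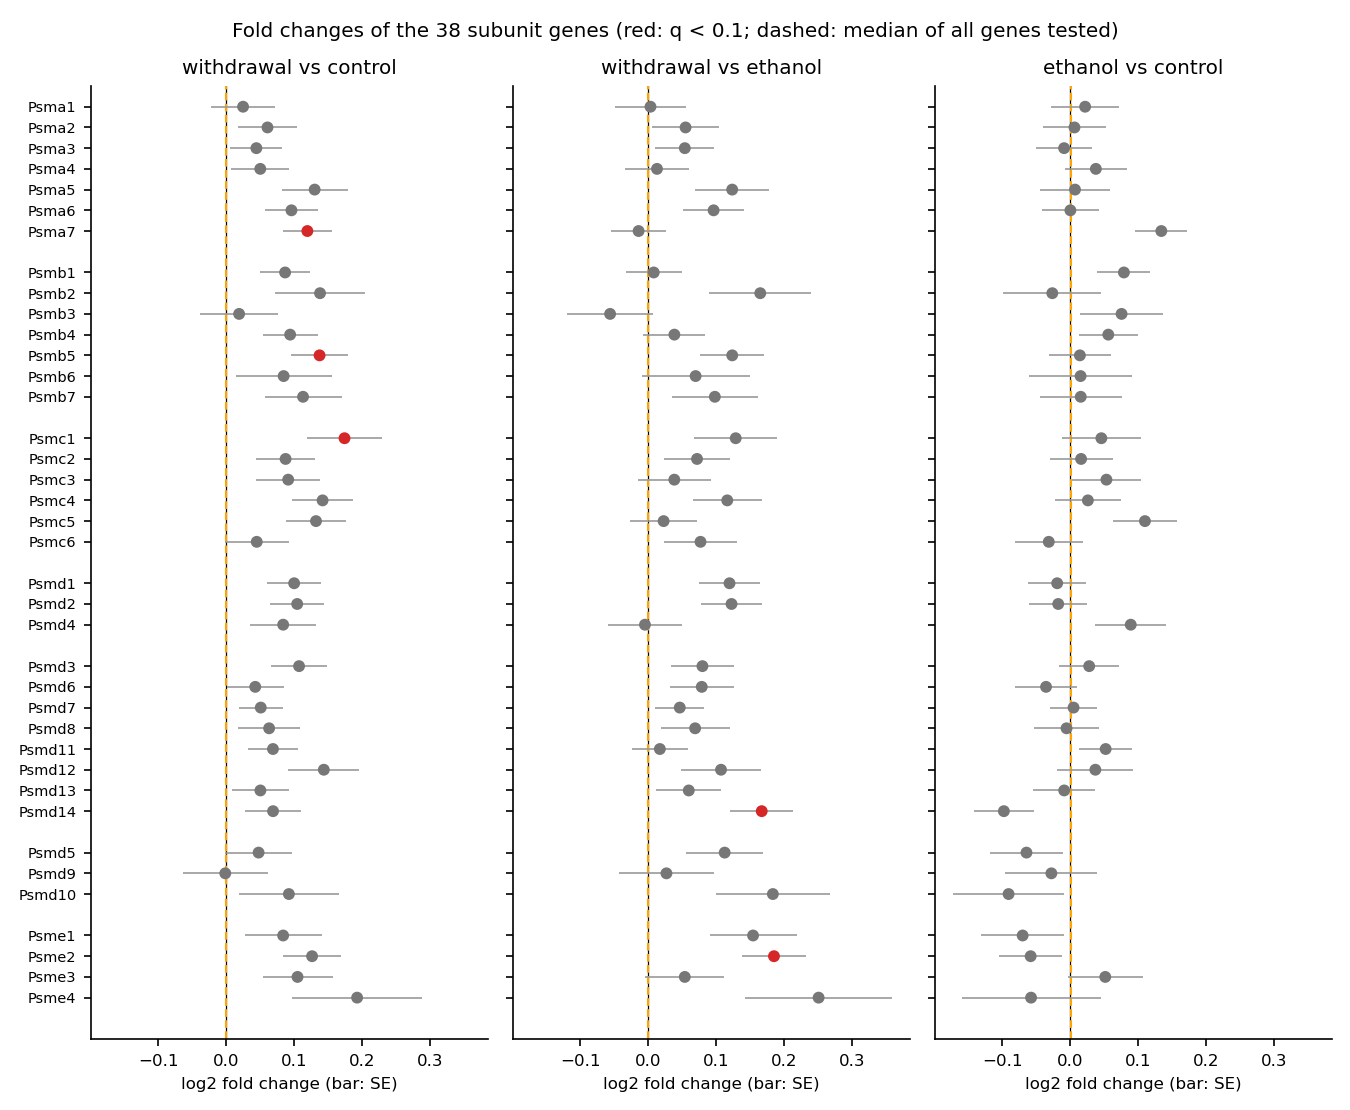
Log2 fold change (horizontal axis, with its SE) of the 38 subunit genes, ordered by subcomplex from alpha ring to activators, in the 3 comparisons, with genes at q < 0.1 in red and the median of all genes tested as a dashed line. In the left panel 37 of 38 points and in the middle panel 35 of 38 points lie right of 0, while in the right panel 22 of 38 do.

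The promoters of the subunit genes are shown as a description, and whether their motifs bear on the levels was not tested. Promoter sequences from RefSeq (GRCr8), 300 bases reaching from 250 before the gene start to 50 from it, were listed for 34 of the 38 genes, not including Psma7, Psmd6, Psmd12 and Psmd14. They were searched on both strands for TGACNNNGC, a form of the antioxidant response element that NFE2L1 and NFE2L2 bind, for CCAAT, the CCAAT box, and for CCGGAA, a site of ETS factors. TGACNNNGC was found in 8 of 34 promoters (23.5%), those of Psma3, Psmb2, Psmb5, Psmb6, Psmd1, Psmd3, Psmd9 and Psme4, and in 12.1% of all 33469 promoters. CCAAT was found in 17 promoters (50%) beside 37.5% of all, and CCGGAA in 18 (52.9%) beside 15.0% of all. Of 10 matches to TGACNNNGC, 1 overlapped a match to another of the motifs. These shares are descriptions of letters in a window. The stretch from 150 bases to 1 base before the start follows, 5′ to 3′ on the strand of the gene and with whole matches to any of the 3 motifs in capitals, for 2 catalytic subunits with TGACNNNGC and for 2 subunits of the regulatory particle with CCGGAA, among them the called genes Psmb5 and Psmc1.
Psmb5 (chr15:32047380-32047529, minus strand): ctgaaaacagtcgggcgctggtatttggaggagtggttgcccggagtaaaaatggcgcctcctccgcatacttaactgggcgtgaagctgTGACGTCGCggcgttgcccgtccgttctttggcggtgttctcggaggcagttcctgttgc
Psmb6 (chr10:55737738-55737887, plus strand): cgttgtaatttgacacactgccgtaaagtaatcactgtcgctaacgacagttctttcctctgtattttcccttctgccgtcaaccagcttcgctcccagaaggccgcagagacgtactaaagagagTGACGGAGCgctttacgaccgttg
Psmc1 (chr6:125122347-125122496, plus strand): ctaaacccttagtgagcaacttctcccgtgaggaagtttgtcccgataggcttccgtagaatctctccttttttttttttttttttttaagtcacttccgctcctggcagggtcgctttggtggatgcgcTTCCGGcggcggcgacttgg
Psmd2 (chr11:93763389-93763538, minus strand): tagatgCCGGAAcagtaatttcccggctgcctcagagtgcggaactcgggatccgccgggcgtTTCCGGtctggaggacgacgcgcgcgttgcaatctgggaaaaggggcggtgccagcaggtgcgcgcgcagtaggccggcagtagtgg

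In Psmb5 the match to TGACNNNGC began 60 bases before the start, and in Psmb6 it began 24 bases before. In Psmc1 the CCGGAA match, read on the opposite strand, began 20 bases before the start, and in Psmd2 the matches began 144 and 87 bases before. Psmb7, the remaining catalytic subunit, had 2 matches to CCGGAA, 2 to CCAAT and none to TGACNNNGC in its window. The windows of Psme1 and Psme2, which encode partners in one activator, held none of the 3 motifs.

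In the alpha ring, whose subunits gate the entrance to the core, Psma7 (Rnor_6.0 chromosome 3, 175420042 to 175426384, minus strand) was the only gene called. Its level was 73.9 to 80.1 CPM in control rats (median 76.7), 79.9 to 86.9 CPM in ethanol rats (median 83.9) and 78.2 to 88.7 CPM in withdrawal rats (median 84.1). Thus 5 of 6 withdrawal rats and 5 of 6 ethanol rats lay above every control rat, and the ethanol and withdrawal rats overlapped almost fully. The log2 fold change was 0.12 ± 0.036 (SE) between withdrawal and control (q = 0.0871, limma-voom; exact permutation p = 0.00433) and 0.13 ± 0.038 between ethanol and control (q = 0.153, limma-voom; exact permutation p = 0.00433). Between withdrawal and ethanol it was -0.01 (q = 0.896, limma-voom), and its ethanol and withdrawal medians were alike. Of the other alpha genes, Psma5 (log2 fold change 0.13, q = 0.152, limma-voom) and Psma6 (0.10, q = 0.191, limma-voom) followed between withdrawal and control, and Psma1 was lowest at 0.02. The RefSeq table lists 3 pseudogenes or copies of Psma7. Reads that align equally to them were not counted, which may lower its counts.

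In the beta ring all 7 genes had a log2 fold change above 0 between withdrawal and control, with a median of 0.09, and Psmb5 (chromosome 15, 33259039 to 33263634, minus strand) was called. Psmb5 measured 59.2 to 69.9 CPM in control rats (median 65.5), 62.2 to 72.1 CPM in ethanol rats (median 64.1) and 67.1 to 72.5 CPM in withdrawal rats (median 71.3). Of the withdrawal rats 4 of 6 lay above every control rat, and 5 of 6 ethanol rats lay below every withdrawal rat, ethanol rat 5 being the exception. The log2 fold change was 0.14 ± 0.042 against control (q = 0.0920, limma-voom; exact permutation p = 0.0108) and 0.12 ± 0.047 against ethanol (q = 0.199, limma-voom).

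The other catalytic subunits did not pass the test. Psmb6, which cuts after acidic residues, measured 39.5 to 47.7 CPM in control (median 45.1), 40.3 to 51.0 CPM in ethanol (median 44.1) and 43.4 to 53.6 CPM in withdrawal rats (median 46.9). Its log2 fold changes of 0.08 ± 0.071 against control (q = 0.538, limma-voom) and 0.07 ± 0.079 against ethanol (q = 0.703, limma-voom) were within about 1 SE of 0, and the groups overlapped. Leaving out 1 rat gave 0.04 (without control rat 3) to 0.11 and 0.04 to 0.15 (without ethanol rat 5). Psmb7, which cuts after basic residues, measured 78.5 to 97.6 CPM in control (median 92.6), 82.3 to 104.7 CPM in ethanol (median 89.6) and 94.3 to 105.3 CPM in withdrawal rats (median 96.1). Every withdrawal rat was above the control mean for Psmb7, with a log2 fold change of 0.11 ± 0.057 (q = 0.280, limma-voom). Against ethanol the value was 0.10 ± 0.064 (q = 0.463, limma-voom), and leaving out 1 rat gave 0.07 to 0.13 against control and 0.07 to 0.16 against ethanol. Among the structural beta genes, Psmb2 had the largest values of the beta ring, 0.14 against control (q = 0.260, limma-voom) and 0.16 against ethanol (q = 0.279, limma-voom), with 61.4 CPM in withdrawal rat 1 and at most 48.2 CPM in the other withdrawal rats. Psmb1 and Psmb4 had 0.09 each and Psmb3 had 0.02 against control, and Psmb3 was lower than in ethanol by -0.06 (q = 0.701, limma-voom). Of Psmb3, 10 copies are listed.

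The ATPases, which unfold substrates and open the core, had the largest median difference from control among the subcomplexes of the core and regulatory particle, 0.11 over 6 of 6 genes above 0. Psmc1 (chromosome 6, 124123283 to 124135644, plus strand) measured 133.4 to 145.6 CPM in control rats (median 139.8), 136.9 to 155.2 CPM in ethanol rats (median 142.9) and 142.6 to 184.8 CPM in withdrawal rats (median 154.6). Withdrawal rats 1 and 5 were the highest of all rats, and 5 of 6 withdrawal rats lay above every control rat. The log2 fold change was 0.17 ± 0.055 against control (q = 0.0985, limma-voom; exact permutation p = 0.00649) and 0.13 ± 0.061 against ethanol (q = 0.301, limma-voom). Psmc4 (0.14, q = 0.106, limma-voom) and Psmc5 (0.13, q = 0.114, limma-voom) were next against control and did not pass the threshold. Psmc5, the gene with the highest level per kb, measured 140.5 to 155.1 CPM in control (median 145.7), 154.7 to 163.0 CPM in ethanol (median 158.1) and 145.5 to 186.6 CPM in withdrawal rats (median 158.7). As for Psma7, its ethanol and withdrawal medians were alike.

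In the base, Psmd1 and Psmd2 form the scaffold that docks substrates and Psmd4 is a ubiquitin receptor. Psmd2 (chromosome 11, 83934098 to 83944725, minus strand) was the only subunit gene of which every withdrawal rat exceeded every control rat, 1 of 38 where 0.521% of all genes did so. It measured 174.0 to 188.1 CPM in control rats (median 183.9), 167.6 to 196.4 CPM in ethanol rats (median 176.9) and 191.0 to 208.1 CPM in withdrawal rats (median 195.3). Ethanol rat 5 alone among the ethanol rats overlapped the withdrawal rats. The difference did not pass the threshold in the model (log2 fold change 0.10 ± 0.040, q = 0.164, limma-voom), and the exact permutation p of 0.00216 is the smallest that 6 against 6 rats can give. Psmd1 had 0.10 against control (q = 0.178, limma-voom) and 0.12 against ethanol (q = 0.191, limma-voom), while Psmd4 had 0.08 against control and -0.005 against ethanol.

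The lid removes ubiquitin chains through Psmd14, the deubiquitinase of the complex, and all 8 lid genes were above 0 against both groups. Psmd14 (chromosome 3, 47578449 to 47673330, plus strand) measured 63.2 to 69.7 CPM in control (median 66.2), 55.6 to 67.3 CPM in ethanol (median 60.8) and 66.5 to 73.7 CPM in withdrawal rats (median 69.1). In ethanol 5 of 6 rats lay below every control rat, ethanol rat 5 again being apart. Psmd14 was called between withdrawal and ethanol (log2 fold change 0.17 ± 0.046, q = 0.0895, limma-voom; exact permutation p = 0.00866) and not between withdrawal and control (0.07 ± 0.041, q = 0.365, limma-voom). The call against ethanol held in 9 of 14 alternatives and in 7 of 18 fits that left out 1 rat. It was lost without any single control rat. Between ethanol and control the log2 fold change of Psmd14 was -0.10 ± 0.044 (q = 0.372, limma-voom), and leaving out 1 rat gave -0.13 to -0.06. The annotated span of another gene on the same strand overlaps that of Psmd14, and 1 copy of Psmd14 is listed. Whether these affect its counts was not tested. Psmd12 (0.14, q = 0.143, limma-voom) and Psmd3 (0.11, q = 0.165, limma-voom) led the lid against control.

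**Figure D5:**
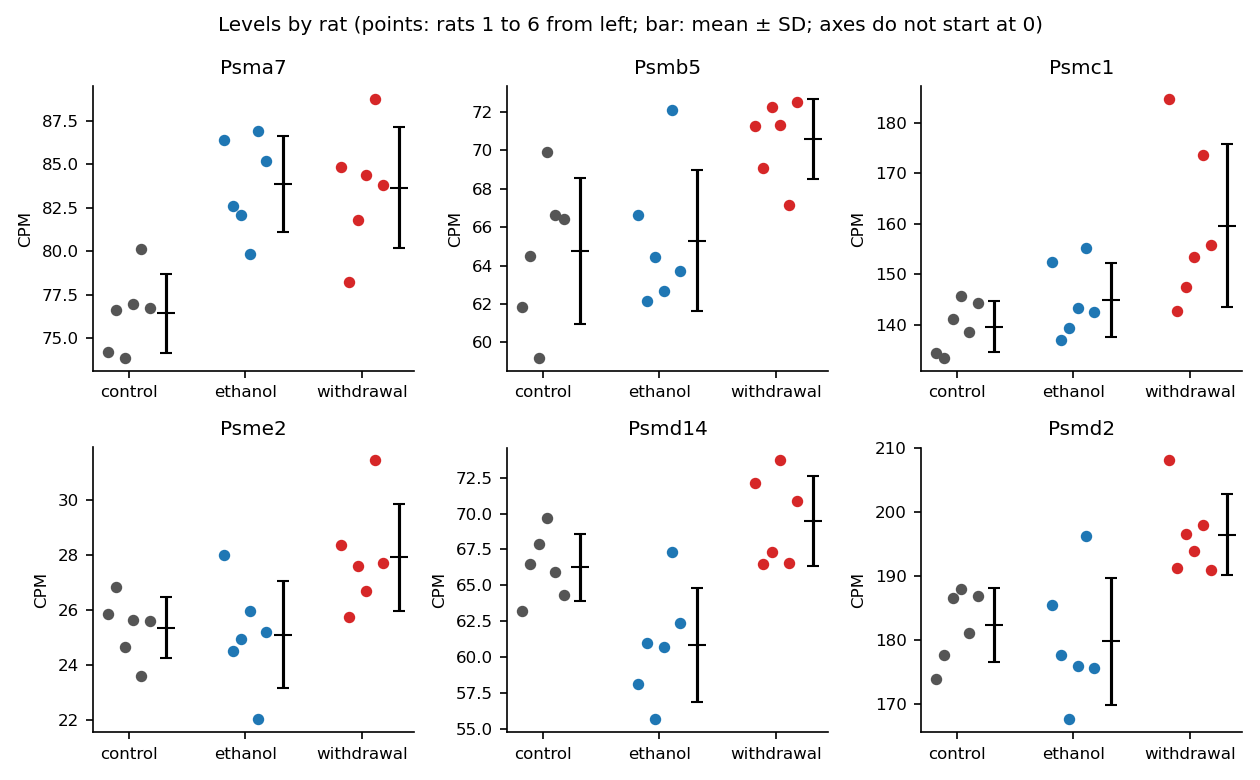
CPM (vertical axis, not starting at 0) of the 5 called genes and Psmd2 in each rat, with rats 1 to 6 from left to right in each treatment and a bar for the mean and SD. The points of Psma7 lie higher in ethanol rats (79.9 to 86.9) than in most control rats, and those of Psmd14 lie lower in ethanol rats other than rat 5. Neither gene was called between ethanol and control. All withdrawal rats (191.0 to 208.1) exceed all control rats (174.0 to 188.1) for Psmd2.

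The activators open the core without ATP hydrolysis, Psme1 and Psme2 as partners that respond to interferon, Psme3 in the nucleus and Psme4 as a single large protein. Their median log2 fold change was 0.12 against control and 0.17 against ethanol, above 0 in 4 of 4 genes in both. Psme2 (chromosome 15, 34265552 to 34269851, minus strand) measured 23.6 to 26.8 CPM in control (median 25.6), 22 to 28.0 CPM in ethanol (median 25.1) and 25.7 to 31.4 CPM in withdrawal rats (median 27.6). Only 2 of 6 withdrawal rats lay above every ethanol rat, so that the groups overlapped. Psme2 was called between withdrawal and ethanol (log2 fold change 0.18 ± 0.048, q = 0.0731, limma-voom; exact permutation p = 0.0238) and missed the threshold against control (0.13 ± 0.042, q = 0.115, limma-voom). Without surrogate variables the difference from ethanol was 0.15 (q = 0.173, limma-voom), and 3 copies of the gene are listed.

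Psme1 measured 31.6 to 35.6 CPM in control (median 33), 28.8 to 36 CPM in ethanol (median 32.7) and 31.9 to 38.8 CPM in withdrawal rats (median 34.7). Its log2 fold change was 0.08 against control (q = 0.433, limma-voom) and 0.15 against ethanol (q = 0.236, limma-voom). Without withdrawal rat 6 these values were 0.04 and 0.09, and without surrogate variables the value against ethanol was 0.10. Psme3 measured 92.6 to 103.4 CPM in control, 95.4 to 105.6 CPM in ethanol and 95.6 to 121.2 CPM in withdrawal rats, with 0.10 against control (q = 0.271, limma-voom) and 0.05 against ethanol (q = 0.681, limma-voom). Without withdrawal rat 1, the highest for Psme3, these values were 0.05 and 0.01. Psme4 had the widest spread of the activators, with 118.6 to 176.5 CPM in control, 125.3 to 178.1 CPM in ethanol and 164.7 to 191.8 CPM in withdrawal rats. Its log2 fold changes of 0.19 ± 0.096 against control (q = 0.276, limma-voom) and 0.25 ± 0.108 against ethanol (q = 0.251, limma-voom) did not pass the test. Control rat 1 (118.6 CPM) was below the other control rats (150.4 CPM or more), and without it the value against control was 0.12.

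The assembly chaperones had the lowest median log2 fold change against control of the subcomplexes, 0.05. Against ethanol their median was 0.11, with 3 of 3 genes above 0. Psmd9 was the 1 gene below 0 against control, at -0.001 ± 0.062 (q = 0.996, limma-voom), and its sign changed with the processing. It measured 16.3 to 18.5 CPM in control and 16.0 to 18.9 CPM in withdrawal rats, and the groups overlapped fully. Psmd10, an oncoprotein also called gankyrin and the subunit gene with the lowest level per kb, measured 5.04 to 6.07 CPM in control, 4.70 to 6.17 CPM in ethanol and 5.28 to 6.72 CPM in withdrawal rats.

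The comparison of withdrawal with ethanol asked what differs with the withdrawal itself. It shared the 6 withdrawal rats with the comparison above, so the similar direction of its values is not independent of it. Psme2 and Psmd14 were called higher, 2 of 38 genes (5.26%), where 1.23% of all genes tested and 1.54% of those of at least 10 CPM were. No subunit gene was called lower, where 266 of the 17853 genes tested were. The log2 fold change was above 0 for 35 of 38 genes, where 49.9% of all genes and 53.0% of those of at least 10 CPM were. Its median was 0.07, and 0.12 without ethanol rat 5. At an unadjusted p below 0.05, 12 of 38 genes (31.6%) were higher, where 8.06% of all genes and 10.2% of those of at least 10 CPM were. This last count was 4 without ethanol rat 3, 5 without ethanol rat 2 or withdrawal rat 6, and 20 without ethanol rat 5. No subunit gene had every withdrawal rat above every ethanol rat, where 0.611% of all genes did. The count of genes called at q < 0.1 was 11 without ethanol rat 5, was 0 without ethanol rat 2, ethanol rat 3 or withdrawal rat 6, and was 1 without any single control rat, ethanol rat 6 or withdrawal rats 1 or 3. It was 2 without ethanol rats 1 or 4 or withdrawal rats 4 or 5, and 3 without withdrawal rat 2. The shares of all genes in these fits are not given here either.

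Between ethanol and control 0 of 38 subunit genes were called, where 0.493% of all genes were called in either direction. With 1 call in DESeq2, that of Psma7, and 0 in edgeR, 3 of 38 genes had an unadjusted p below 0.05 (limma-voom), where 12.5% of all genes did, and this count was 1 without control rat 2 or 3. These were Psma7 and Psmc5, which were higher, and Psmd14, which was lower. Psmb1 followed at 0.08 ± 0.039 (q = 0.427, limma-voom), and 5 of 6 ethanol rats lay above every control rat for it. Without ethanol rat 5 its value was 0.05. The annotated span of another gene, Ppm1n, overlaps that of Psmb1 on the same strand, and whether this affects its counts was not tested. The log2 fold change was above 0 for 22 of 38 genes, where 50.1% of all genes were above 0, with a median of 0.01. Without ethanol rat 5 it was above 0 for 10 genes, with a median of -0.03, and without surrogate variables for 16. In the main fit it was above 0 for 16 of the 20 alpha ring, beta ring and ATPase genes. It was below 0 for all 3 assembly chaperones and for 3 of 4 activators, with Psmd5 at -0.06 (q = 0.667, limma-voom) and Psme2 at -0.06 (q = 0.640, limma-voom). Leaving out 1 rat gave -0.11 to -0.03 for Psmd5, and Psme2 was at -0.02 without surrogate variables.

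Among 44 other genes of the ubiquitin and proteasome pathway, 40 were tested, and 2 (5%) were called higher in withdrawal than in control, where 2.85% of all genes were. No gene of this set was called lower, where 456 of the 17853 genes tested were. In the other comparisons 0 were called (limma-voom). At an unadjusted p below 0.05, 9 genes (22.5%) were higher in withdrawal than in ethanol, where 8.06% of all genes were, and 7 differed in either direction between ethanol and control, where 12.5% of all genes did. Both called genes were regulators of transcription. Nfe2l1, the factor that drives subunit genes when the proteasome is impaired, measured 235.7 to 261.0 CPM in control rats (median 248.4), 243.6 to 294.8 CPM in ethanol rats (median 260.1) and 255.9 to 302.2 CPM in withdrawal rats (median 264.7), and 4 of 6 withdrawal rats lay above every control rat. Its log2 fold change against control was 0.10 ± 0.028 (q = 0.0640, limma-voom; exact permutation p = 0.00649). The call was lost without surrogate variables (log2 fold change 0.13, q = 0.337, limma-voom), in 4 of 14 alternatives and in 7 of 18 fits that left out 1 rat, those without control rats 1, 3, 5 or 6 or withdrawal rats 1, 3 or 6, where q reached 0.197. Maff, a small MAF protein that can pair with NFE2L1 and NFE2L2, measured 0.945 to 1.93 CPM in control, 0.991 to 2.52 CPM in ethanol and 1.88 to 12.7 CPM in withdrawal rats. It rose 3.51-fold against control (log2 fold change 1.81 ± 0.414, q = 0.0355, limma-voom; exact permutation p = 0.00433). Without surrogate variables its q was 0.127 (limma-voom), and without withdrawal rat 6 it was 0.159. Against ethanol Maff had a log2 fold change of 1.48 (q = 0.104, limma-voom). Mafg, another small MAF protein, was just outside the threshold against control (0.10, q = 0.109, limma-voom). Nfe2l2 was at 0.08 (q = 0.490, limma-voom). Of the 7 genes in this list 5 were above 0 against control, and Ddi2 (-0.08, q = 0.315, limma-voom) and Ngly1 (-0.07, q = 0.321, limma-voom), which process NFE2L1, were below.

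The remaining lists gave no call. All 3 immunoproteasome genes, Psmb8, Psmb9 and Psmb10, which replace the catalytic subunits in immune cells, were low, with mean control levels of 1.85, 3.22 and 13.2 CPM and log2 fold changes in withdrawal against control of -0.05, 0.02 and 0.04. Against ethanol 3 of 3 were above 0 (median 0.21) and between ethanol and control 0 of 3 were (median -0.19), with 0 genes at an unadjusted p below 0.05 in these comparisons (limma-voom). The further subunit Adrm1, a ubiquitin receptor, had 0.14 against control (q = 0.139, limma-voom). Of the assembly factors and inhibitors 2 of 6 were above 0 against control, with a median of -0.08 and 0 called, and at an unadjusted p below 0.05 there was 1 gene in each direction, the inhibitor Psmf1 at -0.10 (q = 0.183, limma-voom) and Ecpas, a proteasome adaptor, at 0.08 (q = 0.196, limma-voom). All 6 genes of the list around Vcp, the ATPase that extracts ubiquitinated proteins, and all 6 shuttle and receptor genes tested were above 0 against control, with medians of 0.05 and 0.06. Of the deubiquitinases and the ligase, 1 of 3 was above 0, Uchl5 at 0.17 (q = 0.118, limma-voom). In the whole set of 40, 13 genes (32.5%) were higher against control at an unadjusted p below 0.05, where 10% of all genes were.

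Marker genes of other cell types moved between the same groups. All 5 red cell genes tested fell in withdrawal and in ethanol against control, with medians of -1.51 and -1.59 and summed levels of 128 to 227 CPM in control, 37.4 to 97.2 CPM in ethanol and 42.0 to 151.5 CPM in withdrawal rats, whereas they were not called between withdrawal and ethanol. Of 6 astrocyte markers, Gfap rose (log2 fold change 0.54, q = 0.0775, limma-voom; against ethanol 0.74, q = 0.0578, limma-voom) and Aldh1l1 (-0.41) and Gja1 (-0.13) fell against control, and the summed level was 2867 to 3245 CPM in control, 2447 to 3232 CPM in ethanol and 2384 to 3951 CPM in withdrawal rats. Of 5 endothelial markers tested, Pecam1 and Flt1 rose against control, with summed levels of 228 to 279 CPM in control, 245 to 286 CPM in ethanol and 239 to 314 CPM in withdrawal rats. Of 6 hippocampal neuron markers tested, Prox1 fell (-0.26, q = 0.0968, limma-voom). No oligodendrocyte, microglia, choroid plexus or thalamus marker was called in this comparison. The part of these differences in the levels of the subunit genes was not tested.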

How the data were processed

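RNA-seq of 18 rat dorsal hippocampi was analysed from the raw counts per gene that the authors deposited. Per the labels and the paper, reads were aligned with STAR 2.5.2a to Rnor_6.0 and counted on exons by strand with featureCounts 1.5.0, and pairs with more than one alignment were not counted, which lowers the counts of genes with close copies. The authors' other statistics were not used. Of 38445 gene identifiers, 29322 were named from the RefSeq table (GRCr8), which was used for names and promoters, while gene coordinates are those of the files.

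The sample labels gave the treatment and the number of each rat. Counts were scaled by TMM in edgeR 4.0.16, genes above 0.5 CPM in at least 1 rat were kept, 17853 in all, and TMM factors were then computed again. Limma 3.58.1 (voom) was fitted in R 4.3.3 to all 18 rats with 3 surrogate variables from sva 3.50.0, estimated from log2 CPM (prior count 2), and the 3 contrasts were adjusted by Benjamini-Hochberg (q < 0.1). Surrogate variables are unnamed sources of variation estimated from the data. The number of surrogate variables is not given in the paper. The permutation estimate of sva gave 3, and its other estimate (Leek) gave 2, with which 0 subunit genes were called. Single genes were also compared by exact permutation, two-sided, of the log2 CPM of 6 against 6 rats. The model was tested on simulated data. Tables and plots were made in Python 3.11.15 with scipy 1.17.1, pandas 2.3.3, matplotlib 3.10.9 and numpy 2.4.6.

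The genes, lists and motifs were chosen with earlier results of these data known. Named genes were, in each comparison, the called genes and the 3 with the smallest p in each direction, together with the catalytic subunits, Psmd14, the activators, the genes with the highest and lowest level per length and the called pathway genes. The other genes named were picked after their values were seen. The counts on genes ranged from 30873228 to 42679748 per rat. In 45 pairs of rats of one group the lowest chi-square per degree of freedom was 5.74, so no library was repeated within a group. Pairs of rats of different groups were not compared. Alternatives were other numbers of surrogate variables, edgeR, DESeq2 1.42.0, other scalings and filters, quality weights, models of only the groups compared, a block for the replicate number and leaving out each rat. TMM factors from all genes before the filter were added after seeing the data. Protein sequences were not analysed here. Some single genes of the pathway lists are not reported here.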

Additional observations from a re-analysis of the deposited data

Results flagged for a closer look

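For each of the 38 subunit genes and the proteasome score, the 6 rats of each group were examined for 1 rat that stood apart from the others by Dixon's criterion on log2 CPM. Of 117 such groups of rats 10 had one, and chance gives about 1 in 20. The groups are not independent, because every gene was measured in the same rats, so these shares cannot be compared as a test. Ethanol rat 5 was high for 7 of them. It had 67.9 CPM of Psma5 beside 59.5 CPM in the nearest ethanol rat, 48.4 CPM of Psmb2 beside 43.3 CPM, 104.7 CPM of Psmb7 beside 90 CPM, 77.7 CPM of Psmc4 beside 69.0 CPM, 128.5 CPM of Psmc6 beside 114.0 CPM, 117.6 CPM of Psmd6 beside 101.7 CPM and 110.9 CPM of Psmd13 beside 96.6 CPM. Withdrawal rat 1 had 61.4 CPM of Psmb2 beside 48.2 CPM in the nearest withdrawal rat. Withdrawal rat 2 was low for Psmd6, with 102.7 CPM beside 111.7 CPM. Control rat 1 was low for Psmd4, with 68.8 CPM beside 75.6 CPM. The score itself had no such rat in any group.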

How the results depend on the processing

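Over the 14 alternatives with all rats, 35 to 38 of 38 genes were above 0 between withdrawal and control and 32 to 35 between withdrawal and ethanol, and leaving out each rat gave 35 to 38 and 31 to 37. Between ethanol and control these ranges were 14 to 24 and 10 to 27. The 3 genes called between withdrawal and control became 0 with no surrogate variable, 0 with 2, 5 with 4, 6 in DESeq2, 0 in edgeR without surrogate variables, 1 with median-ratio size factors, 0 without the filter and 0 at q < 0.05. Leaving out 1 rat gave 0 to 11 genes. The 2 genes called between withdrawal and ethanol became 1 with no surrogate variable, 0 with 2, 1 in edgeR without surrogate variables, 0 without the filter, 0 with only the 2 groups compared and 0 at q < 0.05, and 0 to 11 when 1 rat was left out. Between ethanol and control, DESeq2 called 1 gene, and leaving out 1 rat gave 0 to 0. The shares of all genes called in these alternatives are not given here, so the counts show no trait particular to the subunit genes. The cause of these changes was not tested. The score difference between withdrawal and control was 0.08 to 0.10 under other scalings, prior counts and subsets of genes, and 0.07 to 0.11 when 1 rat was left out, the lowest without withdrawal rat 1 and the highest without withdrawal rat 2. Between withdrawal and ethanol leaving out 1 rat gave 0.07 to 0.11, and between ethanol and control -0.02 to 0.01.

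Rats with the same replicate number are different animals, and in 4 of 18 pairs the correlation of their deviations was over 0.1 (range -0.41 to 0.51), so the numbers do not pair the rats, and 4 rats correlated best with their own number. With the replicate block and 3 surrogate variables 3 genes were called for withdrawal against control and 0 in each of the other comparisons. With the block and no surrogate variable 0 were called in each.

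Genes close to 0 changed sign. Psmd9 between withdrawal and control moved from -0.001 to 0.00080 with no surrogate variable, 0.001298 with 2, 0.0096 with 4, 0.001991 and 0.004026 in edgeR with and without surrogate variables, 0.0004348 without the filter, 0.002347 with the replicate block alone and 0.002371 with TMM factors from all genes before the filter, and from -0.0289 to 0.0246 when 1 rat was left out. Psmd4 between withdrawal and ethanol moved from -0.005 to 0.012 with no surrogate variable, 0.0133 in edgeR without them and 0.01187 with the replicate block alone, and from -0.0502 to 0.0354 when 1 rat was left out. Psma7 between withdrawal and ethanol ranged from -0.043 to 0.0115 when 1 rat was left out.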
